A study of Mus musculus with 7 samples.

Results

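The genes described here are 36 markers of leukocytes in the mouse uterus, chosen as a list of gene symbols and all found among the 24964 genes of the deposited expression table. They comprise 8 general leukocyte genes, 12 macrophage genes, 8 T and NK cell genes, 2 B cell genes, 4 mast cell genes and 2 granulocyte genes. RNA sequencing was performed on the uterus of mice aged 12 weeks, all recorded as being in diestrus, a stage of the estrous cycle. The 3 control libraries had the genotype Pgrcre/+, in which the recombinase Cre is made from the progesterone receptor gene, and bear the numbers 1, 2 and 4. The 4 libraries labelled Foxl2LsL had the genotype Pgrcre/+Foxl2LsL/+, so the Cre allele was common to all 7 libraries. By its title the study asked how excess FOXL2, a forkhead protein that regulates transcription, alters the uterus. Cre acts where the progesterone receptor gene is or has been active, which can be in several uterine cell types, and the labels do not say whether a library came from 1 animal or a pool. P-values therefore measure the spread between these libraries only.

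Leukocytes are the white cells of the blood and tissues. Macrophages, dispersed through the endometrium and the muscle wall, depend on signals through the CSF1 receptor and clear debris with scavenger receptors. Uterine natural killer (NK) cells carry granules of granzymes, proteases that act inside target cells, while mast cells store histamine and proteases of their own. T cells are defined by the CD3 complex, B cells by the CD79 complex, and neutrophils and eosinophils make up most granulocytes.

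The values are FPKM, fragments scaled to gene length and to the size of the library. The libraries held 47800000 to 67300000 fragments, recovered from the steps between low values, so that 1 FPKM on a gene of 2000 bases stood for 95.5 to 135 fragments. A gene was tested where its mean over the 7 libraries was at least 1 FPKM, by limma on log2(FPKM + 1) with Benjamini-Hochberg adjustment over all 13334 genes tested, and passed where the adjusted p was under 0.05. Of all tested genes 40.6% passed, 16.7% as higher and 23.9% as lower in the libraries labelled Foxl2LsL. Each count below of genes that rose or fell in this fit is to be read beside these shares. Foxl2 itself, the check on the genotype, was at 14.4 ± 4.32 FPKM (SD, n = 3) in controls and 14.7 ± 1.86 FPKM (SD, n = 4) in the libraries labelled Foxl2LsL, with overlap (limma, log2 difference 0.06, adjusted p 0.818). The libraries labelled Foxl2LsL thus did not differ measurably in the counted level of Foxl2, and each direction below refers to the label only. Whether RNA made from the Foxl2LsL allele would be counted under Foxl2 cannot be judged from the values. The overlap therefore does not show whether the allele was active. Epithelial, smooth muscle and stromal markers were abundant in every library, while the oocyte genes Oosp1 and Zp3 were at most 0.125 FPKM. Adipose markers were uneven: Adipoq reached 9.23 FPKM in control 4 and 15.2 and 27.3 FPKM in Foxl2LsL 2 and 3, but at most 2.40 FPKM in the other libraries. The 4 globin genes Hba-a1, Hba-a2, Hbb-bs and Hbb-bt were listed at 0 throughout, so red cell content could not be read from them.

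Of the 36 markers, 27 reached the level needed for the test and 9 did not. Among the 27, 7 rose in the libraries labelled Foxl2LsL (Laptm5, Csf1r, Mrc1, Cd163, Folr2, Gzma and Kit), 1 fell (Gzmb) and 19 did not pass. Cd163 and Gzma reached a mean of 1 FPKM through the libraries labelled Foxl2LsL alone, and Gzmb through controls alone, so these counts are a description and no support for a change of leukocytes in general. The median log2 fold change of the 27 markers was 0.20, beside -0.05 over all genes tested. The groups did not overlap in 9 of the 36 markers, always with the libraries labelled Foxl2LsL above. Of these 9, Cd4 was below the level for the test. Among tested genes alone, 19.7% lay above, 27.9% below and 47.6% in either direction. On the recovered fragments, with limma-voom and a lower limit on abundance, 33 markers were tested, of which 8 rose and 0 fell, beside 15.8%, 21.5% and, in either direction, 37.3% of all genes. In bulk tissue a change in the number of cells cannot be told apart from a change in RNA per cell.

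**Figure D1:**
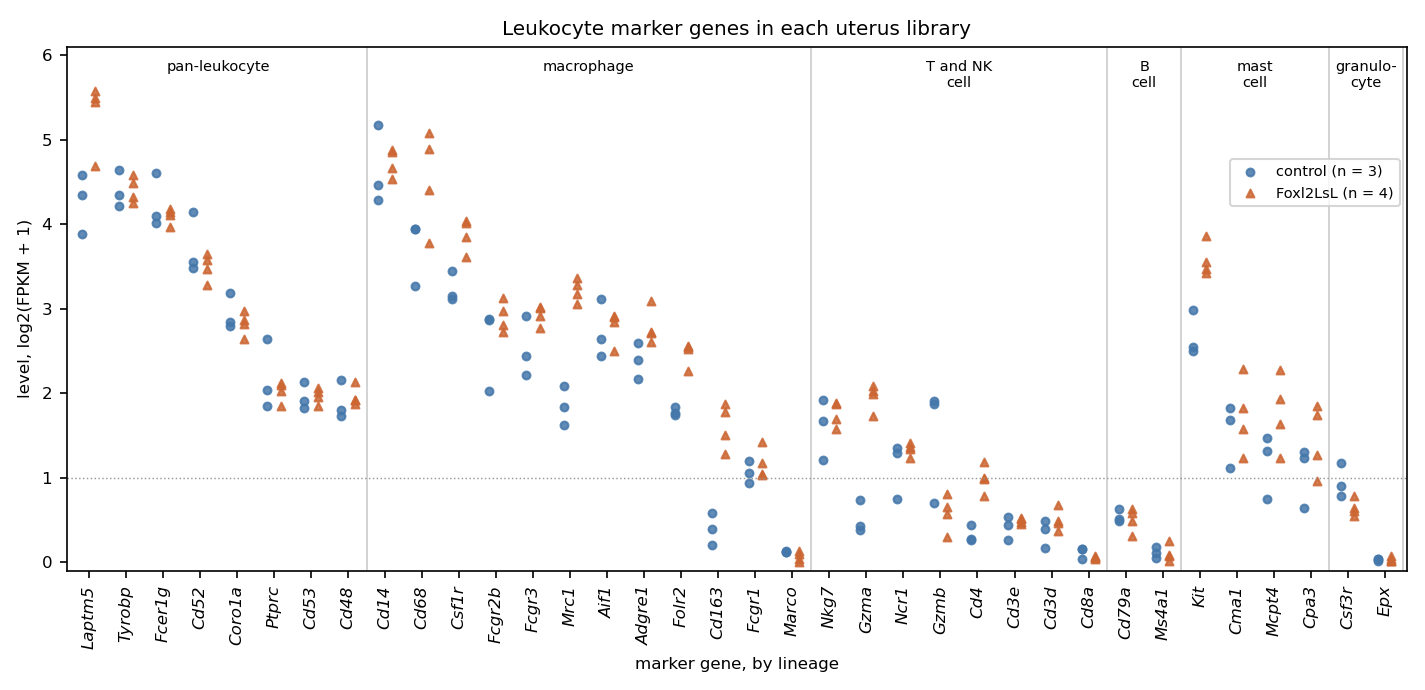
Level of each of the 36 leukocyte markers as log2(FPKM + 1), with circles for the 3 control libraries and triangles for the 4 libraries labelled Foxl2LsL, ordered by mean level within each lineage. The dotted line is at 1 FPKM. Every triangle lies above every circle for Csf1r, Mrc1, Folr2, Cd163, Gzma, Cd4 and Kit, and also, by a narrow margin, for Laptm5 and Adgre1.

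The sequence just before the start site is shown for the macrophage genes Mrc1, Cd163 and Folr2 and the granzyme genes Gzma and Gzmb. All of them passed the test, although Gzmb did so narrowly and with overlap between the groups. Laptm5, Csf1r and Kit passed as well and are not shown. Each run holds the 250 bases before the start site, from RefSeq on GRCm38.p6, written 5′ to 3′ along the gene's strand. Capitals mark GAGGAA, the core of the binding site of PU.1 (the myeloid transcription factor encoded by Spi1), on either strand. The windows are chr2:14229164-14229413 (plus strand) for Mrc1, chr6:124304401-124304650 (plus) for Cd163, chr7:101857191-101857440 (minus) for Folr2, chr13:113100982-113101231 (minus) for Gzma and chr14:56262335-56262584 (minus) for Gzmb. Folr2 has a further RefSeq start that is not shown.
Mrc1: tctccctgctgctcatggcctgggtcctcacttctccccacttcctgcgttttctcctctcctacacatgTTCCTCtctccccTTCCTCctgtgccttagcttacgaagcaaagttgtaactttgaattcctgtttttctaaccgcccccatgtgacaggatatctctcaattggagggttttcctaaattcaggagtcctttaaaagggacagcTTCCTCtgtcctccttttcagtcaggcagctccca
Cd163: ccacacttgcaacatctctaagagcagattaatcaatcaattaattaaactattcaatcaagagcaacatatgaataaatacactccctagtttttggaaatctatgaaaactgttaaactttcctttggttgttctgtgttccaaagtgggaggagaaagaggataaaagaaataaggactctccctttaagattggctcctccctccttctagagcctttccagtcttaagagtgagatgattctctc
Folr2: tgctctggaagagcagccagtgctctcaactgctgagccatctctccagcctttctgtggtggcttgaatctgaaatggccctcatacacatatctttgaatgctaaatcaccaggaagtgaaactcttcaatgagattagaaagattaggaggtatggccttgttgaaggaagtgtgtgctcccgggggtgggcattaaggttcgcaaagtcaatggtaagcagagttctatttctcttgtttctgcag
Gzma: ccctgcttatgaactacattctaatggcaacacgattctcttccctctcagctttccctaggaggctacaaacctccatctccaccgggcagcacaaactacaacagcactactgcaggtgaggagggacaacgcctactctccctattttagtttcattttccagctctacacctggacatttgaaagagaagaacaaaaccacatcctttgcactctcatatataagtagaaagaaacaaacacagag
Gzmb: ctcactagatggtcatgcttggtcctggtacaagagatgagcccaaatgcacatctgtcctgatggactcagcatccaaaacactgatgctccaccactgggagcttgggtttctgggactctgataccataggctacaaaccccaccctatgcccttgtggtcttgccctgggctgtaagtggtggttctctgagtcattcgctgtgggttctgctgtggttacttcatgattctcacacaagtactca
Mrc1 held 3 copies of GAGGAA, all on the opposite strand, and the other windows shown held 0. A window was found for 29 of the 36 markers, and 15 of these 29 held GAGGAA in at least 1 window. They were the general genes Ptprc, Cd53 and Laptm5, the macrophage genes Mrc1, Cd68, Fcgr1, Fcgr3, Aif1 and Marco, the T cell genes Cd3d, Cd3e and Cd8a, the B cell gene Cd79a, the mast cell gene Kit and the granulocyte gene Csf3r. Over all genes in the promoter table, 25.9% held it in at least 1 window, and over all 32851 windows of the same length, 23.3% did. The forkhead sequence TGTTTAC, searched on both strands, was in 0 of the 29, in 3.54% of all genes and in 3.17% of all windows. A match of letters is a description of sequence, not a bound site.

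The general leukocyte genes showed little difference between the genotypes, with 1 exception. Of 8 genes, all tested, 1 rose, 0 fell and 7 did not pass, where 16.7% of all tested genes rose, 23.9% fell and 40.6% passed in either direction. The median log2 fold change of the 8 was -0.05, beside -0.05 over all genes tested. Ptprc encodes CD45, the phosphatase on the surface of nucleated blood cells. It was at 2.60, 5.25 and 3.11 FPKM in controls 1, 2 and 4, and at 3.36, 3.06, 2.60 and 3.28 FPKM in Foxl2LsL 1 to 4. Control 2 was the highest of all, and the rest lay within a narrow range common to both groups. The log2 fold change was -0.16 with a 95% interval of -0.59 to 0.28 (limma, adjusted p 0.536).

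Tyrobp and Fcer1g encode the small adaptors that signal for activating receptors of myeloid and NK cells. Tyrobp was at 19.3, 23.9 and 17.5 FPKM in controls and at 21.5, 19.0, 18.1 and 23.0 FPKM in Foxl2LsL 1 to 4. Fcer1g was at 16.2, 23.3 and 15.2 FPKM in controls and at 16.7, 17.1, 14.6 and 16.2 FPKM in Foxl2LsL 1 to 4. The groups overlapped for both, and control 2 again had the highest value. Their log2 fold changes were 0.02 (95% interval -0.27 to 0.30; limma, adjusted p 0.934) and -0.14 (-0.47 to 0.19; adjusted p 0.453).

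Cd53 (a tetraspanin), Cd52 (a small surface glycoprotein), Cd48 (a ligand of the NK receptor CD244) and Coro1a (an actin-binding protein) gave log2 fold changes of 0.02, -0.24, 0.07 and -0.11, none past the test. In 7 of the 8 general genes control 2 was the highest of the 7 libraries. Leaving it out turned the direction of Ptprc (0.079), Fcer1g (0.038) and Coro1a (0.0093), none of which passed in either fit.

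Laptm5, a lysosomal membrane protein of blood cells, was the exception. It was at 22.9, 19.3 and 13.8 FPKM in controls and at 44.0, 24.7, 42.7 and 47.0 FPKM in Foxl2LsL 1 to 4. The groups did not overlap, but Foxl2LsL 2 lay just above control 1. Its mean went from 18.7 ± 4.61 (SD, n = 3) to 39.6 ± 10.1 FPKM (SD, n = 4), or 1.03 on the log2 scale (SE 0.25; limma, adjusted p 0.0135), which did not pass with a replicate block (limma, adjusted p 0.0642). The summed level of 5 epithelial markers (Epcam, Cdh1, Krt8, Krt18 and Krt19, all detected) was 1094, 799 and 528 FPKM in controls and 1166, 864, 1121 and 1064 FPKM in Foxl2LsL 1 to 4. Within each group the library lowest in Laptm5, control 4 or Foxl2LsL 2, was also the lowest in this sum, and the part of epithelium in the Laptm5 values was not tested.

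Among 12 other general leukocyte genes (Spi1, Itgb2, Rac2, Vav1 and others), 11 were tested, 2 rose and 0 fell. The 2 were Lcp1, an actin-bundling protein, from 12.0 ± 0.616 to 18.6 ± 1.55 FPKM (SD, n = 3 and 4), and Arhgdib, which ranged from 9.63 to 10.3 FPKM in controls and from 12.8 to 16.4 FPKM in the others. Spi1 was at 2.52, 2.64 and 2.25 FPKM in controls and at 2.38, 1.55, 1.82 and 2.01 FPKM in Foxl2LsL 1 to 4, and its groups overlapped.

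Of 12 macrophage genes, 11 were tested, 4 rose, 0 fell and 7 did not pass, where 16.7% of all tested genes rose, 23.9% fell and 40.6% passed in either direction. The median log2 fold change of the 11 was 0.40, and macrophage genes were also 11 of the 27 markers tested. The 4 that rose were the growth factor receptor Csf1r and a set of scavenging and uptake receptors: Mrc1 (the mannose receptor CD206), Cd163 (which takes up haemoglobin bound to haptoglobin) and Folr2 (folate receptor beta). Mrc1, Cd163 and Folr2 are commonly used to mark tissue-resident macrophages.

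Csf1r was at 7.64, 9.88 and 7.89 FPKM in controls and at 13.4, 15.1, 11.2 and 15.5 FPKM in Foxl2LsL 1 to 4. Every library labelled Foxl2LsL lay above every control. Its log2 fold change was 0.64 (SE 0.13; limma, adjusted p 0.00691).

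Mrc1 (chr2:14229392-14332057, GRCm38) was at 2.08, 2.56 and 3.25 FPKM in controls and at 8.71, 8.01, 7.29 and 9.28 FPKM in Foxl2LsL 1 to 4. The lowest library labelled Foxl2LsL was more than 2 times the highest control, with at least 700 fragments on the gene in each library. The mean rose 3.17-fold, a log2 fold change of 1.37 (SE 0.13; limma, adjusted p 0.000411).

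Cd163 (chr6:124304656-124330527) was low in controls, at 0.154, 0.311 and 0.499 FPKM, which is at least 44 fragments each. It was at 1.43, 2.65, 1.83 and 2.42 FPKM in Foxl2LsL 1 to 4, and the groups lay far apart. The ratio of means was 6.48, and the log2 fold change, which log2(FPKM + 1) compresses at this level, was 1.21 (SE 0.17; limma, adjusted p 0.00173). On the recovered fragments limma-voom gave 2.77 (SE 0.41; adjusted p 0.00234).

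Folr2 (chr7:101839988-101857194) was tight in controls, at 2.40, 2.35 and 2.58 FPKM. In Foxl2LsL 1 to 4 it was at 4.85, 3.81, 4.75 and 4.88 FPKM, all above the controls, with Foxl2LsL 2 below the other 3. The log2 fold change was 0.69 (SE 0.10; limma, adjusted p 0.00168).

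**Figure D2:**
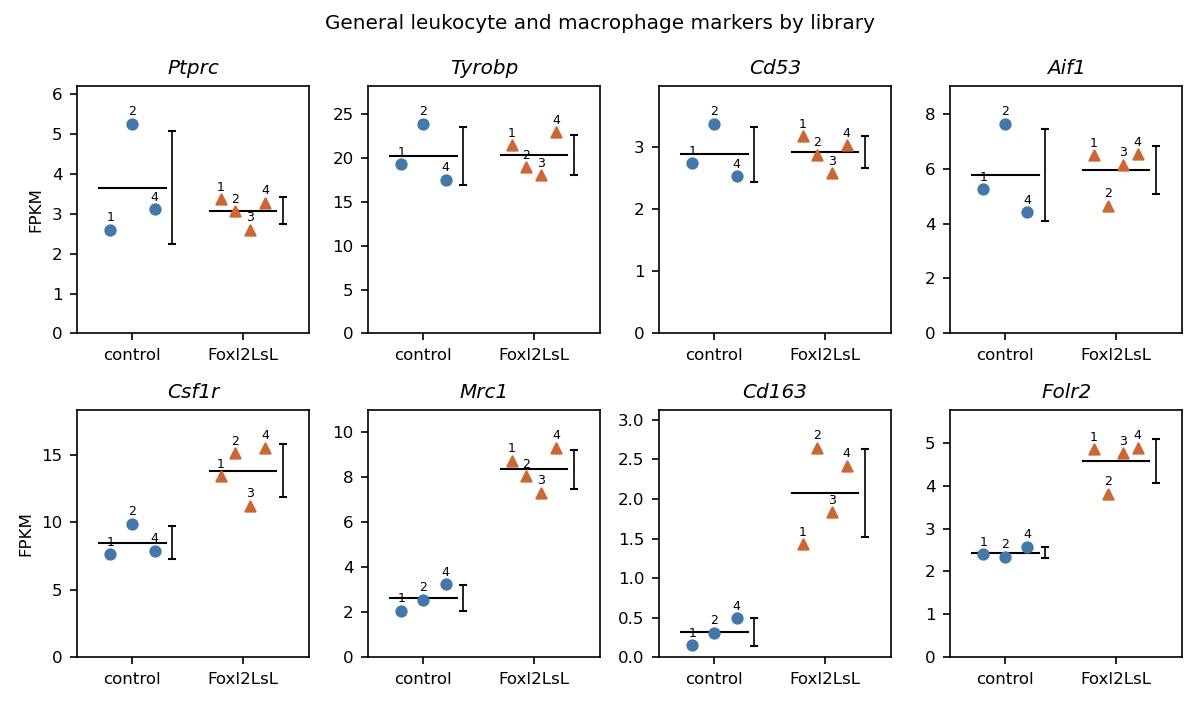
FPKM of 4 leukocyte genes that did not pass the test (top) and 4 macrophage genes that rose (bottom), each point a library with its replicate number, the horizontal line the group mean and the bar ± 1 SD (n = 3 and 4). In the top row control 2 is the highest point of each panel, and in the bottom row every triangle lies above every circle.

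The rising receptors did not keep a fixed proportion to each other. The ratio of Mrc1 to Csf1r, both in FPKM, was 0.272, 0.259 and 0.412 in controls and 0.649, 0.530, 0.650 and 0.599 in Foxl2LsL 1 to 4. That of Cd163 to Csf1r was 0.0202, 0.0315 and 0.0633 against 0.106, 0.175, 0.163 and 0.156. Neither ratio overlapped between the groups, whereas that of Folr2 to Csf1r did (0.238 to 0.327 in controls and 0.252 to 0.423 in the libraries labelled Foxl2LsL). Set against the general marker Ptprc, Csf1r was at 1.88 to 2.94 in controls and 3.999 to 4.94 in the libraries labelled Foxl2LsL. These ratios were formed after the values were seen and are given without a test.

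The other macrophage genes did not pass. Adgre1, which encodes F4/80, was at 3.50, 5.06 and 4.27 FPKM in controls and at 5.57, 5.62, 5.08 and 7.54 FPKM in Foxl2LsL 1 to 4. The groups did not overlap, by a margin of 5.06 against 5.08 FPKM, and the log2 fold change of 0.40 (95% interval 0.06 to 0.74) had an adjusted p of 0.0630 (limma). It passed under median centring and quantile normalization, with adjusted p over all its alternatives of 0.0396 to 0.176 (limma). Aif1, which encodes the actin-binding protein IBA1, overlapped fully (5.77 ± 1.67 and 5.96 ± 0.883 FPKM; SD, n = 3 and 4).

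Cd68, a lysosomal glycoprotein, was at 14.5, 14.4 and 8.64 FPKM in controls and at 28.6, 12.7, 20.2 and 32.9 FPKM in Foxl2LsL 1 to 4. Foxl2LsL 2 fell among the controls, and the log2 fold change of 0.82 (SE 0.32) had an adjusted p of 0.0757 (limma). It passed without Foxl2LsL 2 and with either adjustment for adipose content, with adjusted p over all its alternatives of 0.00255 to 0.191 (limma). As with Laptm5, the lowest library of each group was the one with the least epithelial marker RNA, whose part was not tested.

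The receptors for the Fc part of IgG differed by less than the test could separate. Fcgr1 (the high-affinity activating receptor) had a log2 fold change of 0.11, Fcgr2b (the inhibitory receptor) of 0.32 and Fcgr3 (the low-affinity activating receptor) of 0.40, with adjusted p-values of 0.547, 0.270 and 0.0790 (limma). Fcgr3 passed under median centring, quantile normalization and without control 2. Cd14, a co-receptor for bacterial lipopolysaccharide, was highest in control 4 (35.1 FPKM) and otherwise between 18.5 and 28.5 FPKM in both groups. Without control 4 its log2 fold change was 0.36 and passed (limma, adjusted p 0.0474). Marco, a scavenger receptor of some tissue macrophages, had at most 12 fragments in any library and 0 in Foxl2LsL 3. A count of 0 allows up to 3 fragments, so Marco was close to the limit of detection in all.

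Of 20 other macrophage and monocyte genes, 15 were tested, 2 rose, 1 fell and 12 did not pass. Clec10a, a lectin of macrophages and dendritic cells, had a mean of 3.30 ± 0.316 FPKM in controls and 7.15 ± 0.668 FPKM in the libraries labelled Foxl2LsL, a rise of 0.92 on the log2 scale (SE 0.09; limma, adjusted p 0.000572). Trem2, a lipid-sensing receptor, fell from 7.11 ± 1.77 to 2.39 ± 0.606 FPKM (-1.25, SE 0.19; limma, adjusted p 0.00211). Itgam, which encodes CD11b, was at 1.60 to 1.99 FPKM in controls and at 12.2, 2.93, 4.21 and 18 FPKM in Foxl2LsL 1 to 4, so that its rise (1.60, SE 0.52; limma, adjusted p 0.0416) rested on Foxl2LsL 1 and 4, and it was lost in 8 of its 20 alternatives, among them those without Foxl2LsL 1, Foxl2LsL 4 or any 1 control (limma, adjusted p 0.00173 to 0.0934 over all). Markers found in most macrophages, such as Lyz2 and the complement genes C1qa, C1qb and C1qc, did not pass.

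Mrc1 is also made by lymphatic endothelium, and markers of those vessels moved as well. Of 6 such genes, all tested, 5 rose (Prox1, Flt4, Pdpn, Reln and Mmrn1) and 1, Lyve1, fell from 8.95 ± 3.04 to 5.65 ± 0.120 FPKM (log2 fold change -0.54; limma, adjusted p 0.0401). The call of Lyve1 was lost with limma-voom (adjusted p 0.0515) and with no filter on low values (limma, adjusted p 0.0678). That of Flt4 was also lost with no filter (limma, adjusted p 0.0622). Lyve1 is shared by lymphatic vessels and a subset of macrophages. Prox1, the defining transcription factor, was at 0.725, 0.843 and 0.449 FPKM in controls and 1.58, 1.25, 1.21 and 1.20 FPKM in Foxl2LsL 1 to 4. Prox1 reached a mean of 1 FPKM through the libraries labelled Foxl2LsL alone. The sum of the 6 was 21.7 to 37.6 FPKM in controls and 37.0 to 45.0 FPKM in the libraries labelled Foxl2LsL, and its part in the rise of Mrc1 was not tested.

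**Figure D3:**
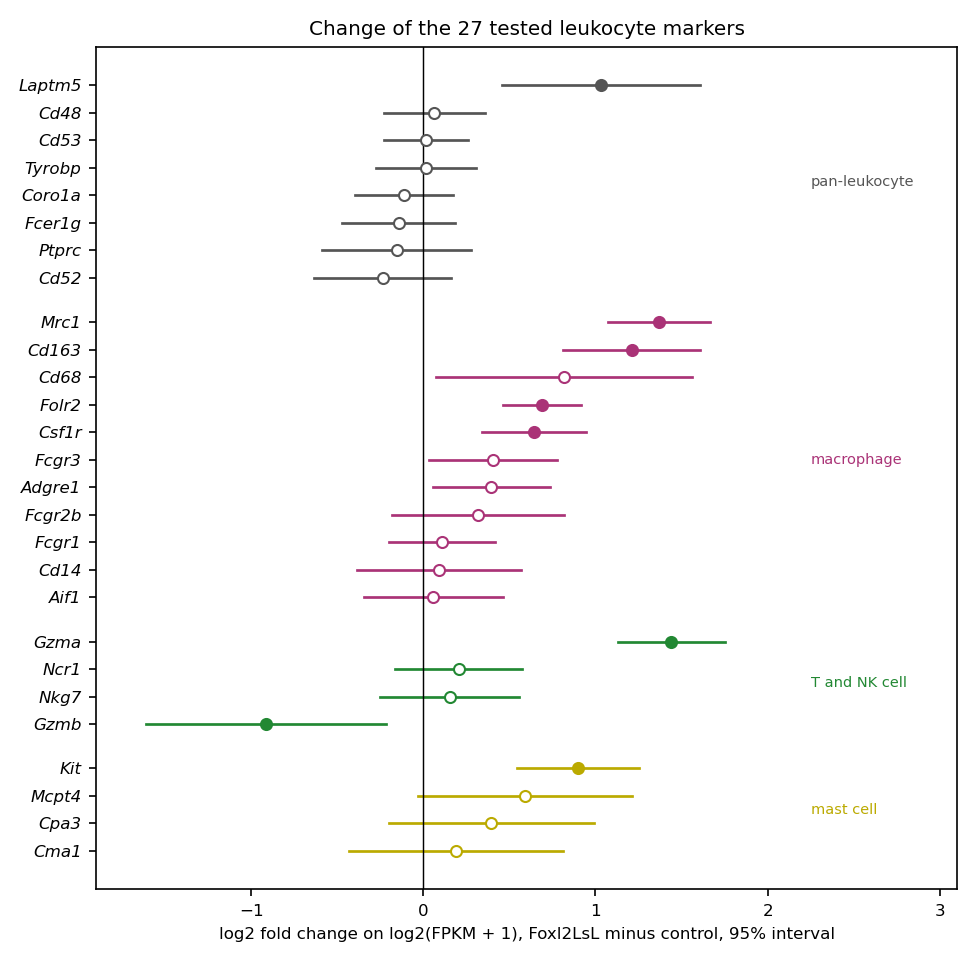
Log2 fold change of the 27 tested markers on the log2(FPKM + 1) scale (Foxl2LsL minus control) with 95% intervals from limma, grouped by lineage, filled where the adjusted p was under 0.05. The general leukocyte genes lie around 0 apart from Laptm5, the macrophage genes all lie to the right of 0, and Gzma and Gzmb lie on opposite sides.

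Genes of T and NK cells were low, and 4 of the 8 fell under 1 FPKM on average. Of the 4 tested, Gzma rose, Gzmb fell and Nkg7 and Ncr1 did not pass. Gzma, a trypsin-like granzyme (chr13:113093825-113100981), was at 0.304, 0.658 and 0.346 FPKM in controls and at 2.96, 2.31, 3.25 and 3.07 FPKM in Foxl2LsL 1 to 4. The groups were widely separated, although controls rested on as few as 17 fragments. The ratio of means was 6.64 and the log2 fold change 1.44 (SE 0.13; limma, adjusted p 0.000411). On the recovered fragments it was 2.78 (SE 0.31; limma-voom, adjusted p 0.000825).

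Gzmb, the granzyme that cleaves after aspartate and activates caspases (chr14:56258838-56262260), went the other way. It was at 0.626, 2.75 and 2.67 FPKM in controls and at 0.232, 0.748, 0.568 and 0.478 FPKM in Foxl2LsL 1 to 4. Controls 2 and 4 were high, and control 1 lay below Foxl2LsL 2, so the groups overlapped. The log2 fold change of -0.92 (SE 0.30) just passed (limma, adjusted p 0.0429). It did not pass in 10 of its 19 alternatives, among them limma-voom (adjusted p 0.0561), the fits without control 2 or control 4 and those without any 1 library labelled Foxl2LsL, and its adjusted p ranged from 0.00202 to 0.156 (limma). Its reads may be shared with the neighbouring granzyme genes, which cannot be judged from the table.

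The 2 NK cell genes that are not granzymes kept near the same level. Nkg7, a protein of cytotoxic granules, was at 1.32, 2.20 and 2.77 FPKM in controls and at 1.97, 2.68, 2.24 and 2.67 FPKM in Foxl2LsL 1 to 4. Ncr1, which encodes the NK receptor NKp46, was at 0.679, 1.45 and 1.54 FPKM in controls and at 1.65, 1.35, 1.58 and 1.52 FPKM in Foxl2LsL 1 to 4. For both, control 1 was the lowest library and the remaining 6 overlapped. Their log2 fold changes were 0.15 (95% interval -0.25 to 0.56; limma, adjusted p 0.513) and 0.20 (-0.16 to 0.57; adjusted p 0.333). Within each library the ratio of Gzma to Ncr1 was 0.448, 0.453 and 0.224 in controls and 1.80, 1.71, 2.05 and 2.02 in Foxl2LsL 1 to 4, and that of Gzmb to Ncr1 was 0.922 to 1.90 against 0.141 to 0.556, again as a description formed after the values were seen.

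**Figure D4:**
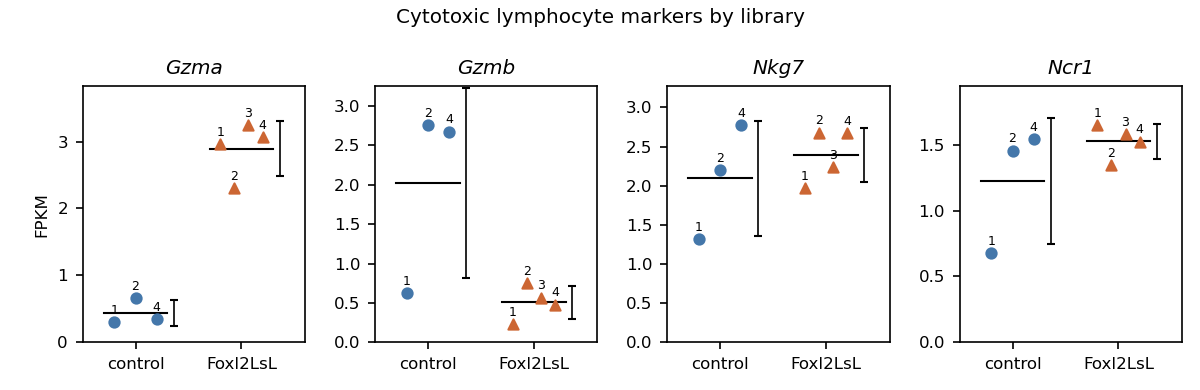
FPKM of the granzymes Gzma and Gzmb and of the NK cell genes Nkg7 and Ncr1, each point a library with its replicate number, the line the group mean and the bar ± 1 SD (n = 3 and 4). Gzma is above 2 FPKM only in the libraries labelled Foxl2LsL and Gzmb only in controls 2 and 4, while Nkg7 and Ncr1 overlap.

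The T cell genes were too low for the test. Cd3d was at 0.403, 0.313 and 0.126 FPKM in controls and at 0.379, 0.598, 0.398 and 0.286 FPKM in Foxl2LsL 1 to 4, and Cd3e, the partner that lies beside it on chromosome 9, was at 0.202 to 0.445 and 0.371 to 0.436 FPKM. Both overlapped. Cd8a, the co-receptor of cytotoxic T cells, had 22, 24 and 5 fragments in controls and 5 to 8 in the libraries labelled Foxl2LsL, a difference that was not detectable at this depth (limma-voom, adjusted p 0.288).

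Cd4 stood apart from the CD3 genes. It was at 0.210, 0.357 and 0.198 FPKM in controls and at 0.717, 0.970, 0.996 and 1.28 FPKM in Foxl2LsL 1 to 4, without overlap and with at least 40 fragments in each library. An exact two-sided permutation test gave p = 0.0571, and 3 against 4 libraries can give no smaller value. On the recovered fragments the log2 fold change was 1.96 (SE 0.31; limma-voom, adjusted p 0.00280), where 13.8% of the genes under 1 FPKM on average were called higher, 14.4% lower and 28.2% in either direction. The ratio of Cd4 to Cd3e was 0.598, 0.802 and 0.980 in controls and 1.64, 2.46, 2.34 and 3.44 in Foxl2LsL 1 to 4. CD4 is the co-receptor of helper T cells and is also found on some macrophages and dendritic cells.

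Of 15 other T cell genes and 12 other NK cell genes in the table, 2 and 3 were tested and 0 passed in limma, also at an unadjusted p under 0.05. By limma-voom, which reached 13 and 9 of them, 0 rose, and 2 T cell genes (Zap70 and Cd8b1) and 1 NK cell gene (Gzmc) fell. Over all genes in that fit 15.8% rose, 21.5% fell and 37.3% passed in either direction. Among those under 1 FPKM on average, 13.8% rose and 14.4% fell, so falls of this number were not particular to these lists. Dendritic cell genes numbered 10, of which 3 were tested, 0 rose and 2 fell. These were Batf3, a transcription factor of cross-presenting dendritic cells, from 3.14 ± 0.250 to 1.13 ± 0.135 FPKM (log2 fold change -0.96; limma, adjusted p 0.000537), and Zbtb46, from 2.36 ± 0.434 to 1.24 ± 0.181 FPKM (-0.58; limma, adjusted p 0.00817). Zbtb46, also made by endothelium, did not pass without the 3 libraries highest in Adipoq (limma, adjusted p 0.0803). Of 5 blood endothelial genes, 3 fell and 1 rose. Limma-voom reached 9 of the dendritic cell genes, of which 1 rose (Siglech) and 2 fell (Batf3 and Zbtb46). Xcr1 was at 0.216 FPKM on average in controls and 0.227 FPKM in the libraries labelled Foxl2LsL, and Clec9a at 1.16 and 0.845 FPKM. Both overlapped and did not pass (limma-voom, adjusted p 0.660 and 0.323).

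B cell genes were low, and Ms4a1 was close to the limit of detection in Foxl2LsL 2. Cd79a, a signalling chain of the B cell receptor, was at 0.428, 0.549 and 0.402 FPKM in controls and at 0.403, 0.237, 0.498 and 0.545 FPKM in Foxl2LsL 1 to 4, and the groups overlapped. Ms4a1, which encodes CD20, had 17, 11 and 5 fragments in controls and 7, 1, 7 and 20 in Foxl2LsL 1 to 4. Neither reached the level for the test. Of 8 other B and plasma cell genes 2 were tested, and Cd79b, the partner of Cd79a, rose from 0.762 ± 0.177 to 1.47 ± 0.419 FPKM (log2 fold change 0.48; limma, adjusted p 0.0484), which did not pass in 8 of its 19 alternatives, among them those without any 1 control. Cd79b reached a mean of 1 FPKM through the libraries labelled Foxl2LsL alone.

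Mast cell genes split into 3 proteases that varied by library and Kit, which rose. Cpa3, carboxypeptidase A3, was at 0.564, 1.46 and 1.34 FPKM in controls and at 0.945, 2.59, 1.40 and 2.35 FPKM in Foxl2LsL 1 to 4. Cma1, a chymase, was at 1.17, 2.21 and 2.54 FPKM in controls and at 1.36, 3.90, 1.97 and 2.55 FPKM in Foxl2LsL 1 to 4. Mcpt4, the chymase of connective tissue mast cells, was at 0.685, 1.49 and 1.77 FPKM in controls and at 1.36, 3.83, 2.10 and 2.83 FPKM in Foxl2LsL 1 to 4.

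The 3 proteases ranked the libraries labelled Foxl2LsL in the same order, 2, 4, 3 and 1, and control 1 was the lowest control for each. Their groups overlapped, with log2 fold changes of 0.39, 0.19 and 0.59 and adjusted p-values of 0.250, 0.603 and 0.114 (limma). Mcpt4 passed with a replicate block and without Foxl2LsL 1, with adjusted p-values over its alternatives of 0.0465 to 0.308 (limma). Tpsb2, a mast cell tryptase, was also lowest in control 1 and highest in Foxl2LsL 2 (1.44 and 5.41 FPKM). The summed adipose markers (6 genes, of which Adipoq, Cidec and Lep were at 0 in control 1) were 0.460, 9.64 and 102 FPKM in controls and 2.82, 135, 269 and 18.9 FPKM in Foxl2LsL 1 to 4. The 3 proteases summed to 2.42, 5.16 and 5.66 FPKM in controls and 3.66, 10.3, 5.47 and 7.72 FPKM in Foxl2LsL 1 to 4. Both sums ranked the controls alike and were lowest in Foxl2LsL 1 within its group. Foxl2LsL 3, highest in adipose markers, was below Foxl2LsL 2 and 4 in proteases. The part of adipose tissue in the mast cell values was not tested.

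Kit, the receptor for stem cell factor, was at 4.83, 6.91 and 4.66 FPKM in controls and at 10.1, 10.7, 13.6 and 9.72 FPKM in Foxl2LsL 1 to 4. Every library labelled Foxl2LsL lay above every control, and the order of libraries was not that of the proteases. Its mean went from 5.47 ± 1.25 (SD, n = 3) to 11.0 ± 1.75 FPKM (SD, n = 4), a difference of 0.90 on the log2 scale (SE 0.15; limma, adjusted p 0.00336). Kit is not restricted to mast cells. Of the 3 genes fixed for Kit-bearing interstitial cells, Ano1 fell from 26.5 ± 7.58 to 15.2 ± 2.73 FPKM, and Thbs4 was at most 0.562 FPKM. Etv1, under 1 FPKM on average, went the other way without overlap, from 0.438 ± 0.0923 to 1.01 ± 0.149 FPKM (limma-voom log2 fold change 1.20, adjusted p 0.00459). The summed level of the 3, which is mostly Ano1, was 19.3 to 34.7 FPKM in controls and 14.02 to 19.1 FPKM in the libraries labelled Foxl2LsL, and their part in the rise of Kit was not tested.

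**Figure D5:**
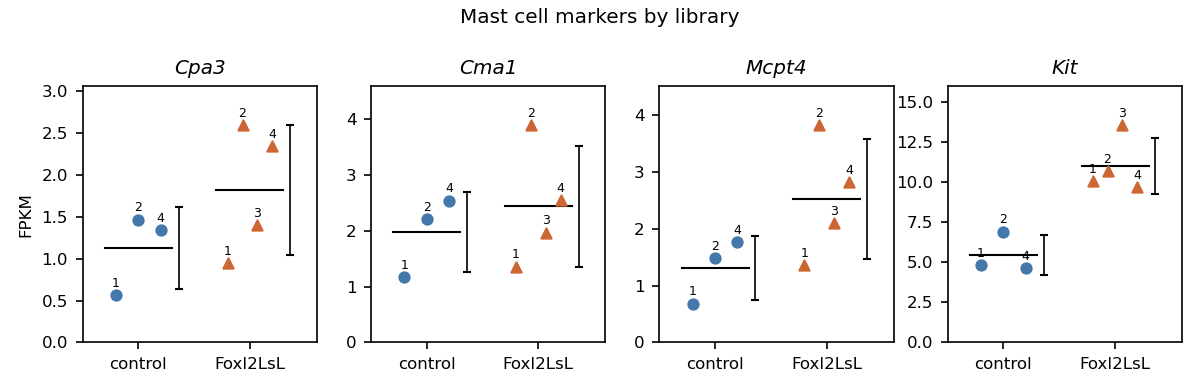
FPKM of the mast cell proteases Cpa3, Cma1 and Mcpt4 and of the receptor Kit, each point a library with its replicate number, the line the group mean and the bar ± 1 SD (n = 3 and 4). The proteases rank the libraries labelled Foxl2LsL 2, 4, 3, 1 and overlap the controls, whereas Kit does not overlap.

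Of 10 other mast cell genes, 3 were tested, 0 rose and 2 fell, where 16.7% of all tested genes rose and 23.9% fell. Tpsb2, also tested, did not pass, at 2.31 ± 0.764 FPKM in controls and 3.55 ± 1.41 FPKM in the libraries labelled Foxl2LsL (log2 fold change 0.44; limma, adjusted p 0.212). Hdc, the enzyme that makes histamine, fell furthest, from 122 ± 60.1 to 15.3 ± 4.47 FPKM (SD, n = 3 and 4; log2 fold change -2.86, SE 0.33; limma, adjusted p 0.000866). Its level was far above that of every mast cell protease, and Hdc is also made by uterine epithelium. Gata2, also far above every mast cell protease in level, fell from 81.3 ± 21.0 to 56.5 ± 3.73 FPKM (-0.49; limma, adjusted p 0.0422), a call lost in 11 of its 20 alternatives. Ms4a2 and Fcer1a, chains of the IgE receptor that define mast cells and basophils, were at most 0.326 FPKM.

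Granulocyte genes were low. Csf3r, the receptor for the neutrophil growth factor G-CSF, was at 0.869, 1.25 and 0.719 FPKM in controls and at 0.720, 0.564, 0.457 and 0.517 FPKM in Foxl2LsL 1 to 4. Control 4 lay just below Foxl2LsL 1 and the others were apart. The log2 fold change on the recovered fragments was -0.72 (SE 0.25; limma-voom, adjusted p 0.0533). Epx, the peroxidase of eosinophils, had 1 to 6 fragments in each library, so no difference was detectable. Of 14 other granulocyte genes 3 were tested and 1 rose, Mmp9, a matrix protease stored in neutrophils and made by other cells, from 1.17 ± 0.173 to 3.50 ± 0.765 FPKM (log2 fold change 1.04; limma, adjusted p 0.00198). The neutrophil genes S100a8 and S100a9 were at most 0.493 FPKM.

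The growth factors that act on these cells moved in both directions. Of 12, 7 were tested, 3 rose, 2 fell and 2 did not pass. Csf3, which encodes G-CSF, was at 2.14, 3.75 and 3.35 FPKM in controls and at 25.1, 12.8, 23.5 and 24.6 FPKM in Foxl2LsL 1 to 4 (log2 fold change 2.44, SE 0.25; limma, adjusted p 0.000572). The groups lay far apart, beside a receptor, Csf3r, that was no higher. Flt3l, the dendritic cell growth factor, rose from 6.67 ± 1.66 to 12.5 ± 0.900 FPKM, and Il33, an alarm cytokine for mast cells and type 2 lymphocytes, from 2.56 ± 0.996 to 6.17 ± 1.41 FPKM.

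The 2 that fell, named after their values were seen, were Kitl, which encodes the ligand of KIT, from 13.2 ± 0.361 to 9.83 ± 0.943 FPKM (log2 fold change -0.39; limma, adjusted p 0.00846), and Il15, the NK cell growth factor, from 6.52 ± 0.911 to 4.09 ± 0.461 FPKM (-0.56; limma, adjusted p 0.00653). Il15 did not pass with a replicate block (0.0595) or without the 3 libraries highest in Adipoq (0.0588, both limma adjusted p). Csf1, a ligand of the receptor encoded by Csf1r, was at 6.03 to 8.11 FPKM in controls and 6.24 to 9.02 FPKM in the libraries labelled Foxl2LsL and did not pass.

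Some of the markers are neighbours in the genome (GENCODE M21, GRCm38). Cma1 (chr14:55941451-55944675), Mcpt4 (chr14:56059629-56062313) and Gzmb (chr14:56258838-56262260) lie in one cluster of serine protease genes on the minus strand. The groups overlapped for all 3, and of them Gzmb passed, a call lost in 10 of its 19 alternatives. Gzma lies on chromosome 13, apart from that cluster. On chromosome 1, Fcgr2b (chr1:170958617-170976547), Fcgr3 (chr1:171051174-171064935) and Fcer1g (chr1:171229572-171234365) are neighbours, and none of them passed.

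Leaving out the 3 libraries highest in Adipoq (control 4, Foxl2LsL 2 and Foxl2LsL 3) left 2 against 2, and 8 markers then rose and 0 fell, beside 13.6% and 19.1% of all tested genes, or 32.7% in either direction. With the adipose score as a covariate, 8 rose and 1 fell, beside 16.9% and 22.7% of all genes, or 39.5% in either direction. With no filter on low values, 8 rose and 0 fell, beside 11.6% and 16.0%, or 27.6% in either direction. Csf1r, Mrc1, Cd163, Folr2, Gzma and Kit kept their calls in every alternative in which they were tested.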

How the data were processed

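Expression was measured by RNA sequencing of total RNA from whole uterus, extracted with TRIzol, per the labels' protocols. The authors deposited 1 table of FPKM values with 1 column per library, and the same deposited table lists another value, gene length in bases, per the file headers. The submitters' processing notes name STAR 2.5.2b, featureCounts 1.5.0-p1 from Subread, DESeq2 1.12.4 and the build mm10 without saying what each did. Neither the gene annotation nor whether counting was stranded or filtered is given in the sources used here. Groups came from the titles, and columns were matched to samples by their descriptions.

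Whole fragments were recovered from FPKM multiplied by length. In each library 100% of 1647 to 1819 low values lay within 0.1 of a whole number. Genes with a mean of at least 1 FPKM were tested on log2(FPKM + 1) with limma 3.58.1 in R 4.3.3 (intensity trend, Benjamini-Hochberg adjustment). Fold changes on that scale understate the change of low genes, so limma-voom was run on fragments (mean of at least 10) for the low markers. Single low genes also got a two-sided exact permutation test over 35 splits. The floor of detection was 3 fragments, which covers counting error only. Figures and summaries used Python 3.11.15, pandas 2.3.3 and matplotlib 3.10.9.

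Members and lists were chosen with earlier results of these data known. All 36 markers are named, Foxl2 as the check, and from each related list up to 3 genes that passed without overlap and had the largest change. Of 116 related genes fixed, 3 (Ighm, Trac and Trbc2) were not analysed here. Another 9 genes were chosen for naming with their values in view. These groups make up the 60 genes followed through the alternatives. Other related genes and genes of other compartments are also named beside a result, such as Spi1, Tpsb2, Csf1, Xcr1, Ccr3 and Gzmd. They were picked by no such rule and are not among the 60. The table does not show how reads common to members of a family (Fc receptors, granzymes, mast cell proteases) were assigned. Simulated data of 13334 genes for limma and 16574 for limma-voom each held 200 genes changed by 1 on the log2 scale. Of these 200, limma called 162 and limma-voom 197 in the right direction, besides 7 and 8 unchanged genes. The simulated spread was taken from the real libraries for limma, but was a fixed setting, the same for every gene, for limma-voom. Changed genes were drawn only from those above a lower limit on abundance, which differed between the methods. The counts 162 and 197 therefore do not compare the methods, and 197 does not measure the power of limma-voom on these libraries. In the deposited data 40.6% of tested genes passed in limma. Performance with so large a share of changed genes, or on genes with few fragments alone, was not tested.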

Additional observations from a re-analysis of the deposited data

Results flagged for a closer look

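Among the 60 genes followed through the alternatives, 4 had 1 of the 4 libraries labelled Foxl2LsL far from the other 3. The rule was Dixon's criterion at 95%, where chance gives about 1 in 20. Folr2 was at 3.81 FPKM in Foxl2LsL 2 and 4.75 to 4.88 FPKM in the others. Lcp1 was at 16.3 FPKM in Foxl2LsL 2 and Csf3 at 12.8 FPKM, both again the lowest of their group. Zap70, a T cell kinase, was highest in Foxl2LsL 4 at 0.497 FPKM. In 3 of the 4 the library apart was Foxl2LsL 2, which also had the fewest fragments (47800000). Each of the 4 libraries kept its side of the controls in these genes.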

How the results depend on the processing

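Results were recomputed under 20 alternatives, 18 planned and 2 (both on adipose content) chosen after seeing the data. Of the 8 markers called, 6 kept their call in every alternative in which they were tested, Laptm5 lost it with the replicate block and Gzmb in 10 of 19, and 0 turned direction.

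The count of markers that rose was 7 and lay between 7 and 9 except with a mean of at least 5 FPKM (4, with 2 macrophage and 0 T and NK cell genes), where fewer genes were tested. The count that fell, 1 (Gzmb), was 0 with that filter, with no filter, median centring, limma-voom and without the 3 libraries highest in Adipoq, and 0 to 1 in the 7 leave-one-out fits. The count of T and NK cell genes past the threshold, 2, was 1 with median centring and without those 3 libraries, and 1 to 2 in the leave-one-out fits. With a mean of at least 0.1 FPKM, Cd4 passed as well (limma, adjusted p 0.00297). With no filter and with limma-voom, Cd4 passed and Gzmb did not, so the members changed. That of mast cell genes, 1, was 1 to 2 in the leave-one-out fits. Related genes that rose, 9, numbered 15 with a mean of at least 0.1 FPKM and 14 with limma-voom. Those that fell, 7, numbered 4 with a mean of at least 5 FPKM, 12 with limma-voom and 4 without the 3 libraries highest in Adipoq. The causes were not tested.

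With the replicate block on numbers 1, 2 and 4, 3243 of all genes passed against 5409 (3853 to 5328 in the leave-one-out fits), and 3196 were common to both. General leukocyte genes past the threshold then numbered 0 and mast cell genes 2 (Kit and Mcpt4). Deviations from the group means correlated at 0.228, -0.0306 and -0.112 for same-numbered libraries and at -0.256 to 0.191 for the other pairs. The pair numbered 1 was the highest of all, but not every library correlated best with its own number. With so few libraries these values cannot decide whether same-numbered libraries were paired or handled together, and the labels give only the number.

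Directions turned only among genes that did not pass; Cd14 passed without control 4, at 0.36 (limma, adjusted p 0.0474). In the leave-one-out fits the log2 fold change ranged from -0.32 to 0.079 for Ptprc, -0.078 to 0.14 for Tyrobp, -0.25 to 0.038 for Fcer1g, -0.049 to 0.11 for Cd53, -0.018 to 0.20 for Cd48, -0.19 to 0.0093 for Coro1a, -0.088 to 0.25 for Aif1, -0.085 to 0.36 for Cd14, -0.041 to 0.31 for Nkg7, -0.085 to 0.022 for Cd79a, -0.058 to 0.021 for Ms4a1, -0.022 to 0.35 for Cma1, -0.0062 to 0.013 for Epx and -0.10 to 0.28 for Foxl2. Rescaling turned Tyrobp to -0.0035 and the adipose covariate turned Cd14 to -0.074. Few fragments limit the precision of genes under 1 FPKM.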

Other observations

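Some related genes under 1 FPKM differed on the recovered fragments (limma-voom with Benjamini-Hochberg adjustment; 28.2% of genes under 1 FPKM on average passed). They were chosen after their values were seen and are given without explanation. Gzmc, a granzyme of the cluster that holds Gzmb, had 11, 112 and 52 fragments in controls and 0, 5, 6 and 2 in Foxl2LsL 1 to 4 (log2 fold change -3.83, SE 1.15, limma-voom adjusted p 0.0336). Its neighbours Gzmd, Gzme and Gzmf had 15, 5 and 22 fragments over the 3 controls and 0 in all 4 libraries labelled Foxl2LsL, where reads shared between near-identical genes cannot be judged. Cd8b1, the partner chain of Cd8a, was at 0.194 ± 0.128 and 0.0448 ± 0.0155 FPKM (SD, n = 3 and 4; limma-voom adjusted p 0.0239), and Zap70, the kinase of the T cell receptor, at 0.648 ± 0.0452 and 0.401 ± 0.0641 FPKM (adjusted p 0.0237).

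In the other direction, Cd86, a costimulatory ligand of macrophages and dendritic cells, was at 0.443 ± 0.152 and 1.20 ± 0.281 FPKM (SD, n = 3 and 4; limma-voom adjusted p 0.00912). Siglech, a receptor of plasmacytoid dendritic cells, was at 0.456 ± 0.259 and 1.03 ± 0.208 FPKM (limma-voom adjusted p 0.0257). Il5ra, a chain of the receptor for the eosinophil growth factor IL-5, was at 0.0243 ± 0.0103 and 0.299 ± 0.113 FPKM (limma-voom adjusted p 0.00235), while Epx and Ccr3, further eosinophil genes, stayed at or under 0.177 FPKM. Tslp, an epithelial cytokine that acts on dendritic and mast cells, was at 0.517 ± 0.0576 and 1.07 ± 0.103 FPKM (limma-voom adjusted p 0.00621).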
